A study of Homo sapiens with 5 samples.

Results

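Peaks of RNA:DNA hybrid signal that lie inside protein-coding genes and carry no marked GC skew were examined in the established human cell line PC-9, which derives from a lung adenocarcinoma. The hybrids were mapped by DRIP-seq, in which the S9.6 antibody pulls down sonicated genomic DNA that holds R-loops. A peak was taken as low-skew when the deposited location class was gene body, the assigned gene was protein-coding and the absolute GC skew, the excess of G over C divided by their sum, was below 0.1. This rule selected 7642 of the 23403 peaks in coding gene bodies and of the 80323 peaks in all. The other coding gene-body peaks were 7784 G-rich peaks, with a skew of at least 0.1 on the coding strand, and 7977 C-rich peaks.

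The 4 DRIP libraries fall into 2 labelled exp, taken as the FANCI knockdown that the design text names, and 2 labelled control, all from PC-9 cells. An input library, made without the antibody, enters through its reads in each peak. The labels do not say how the knockdown was made, whether the libraries came from separate cultures or what the controls received, so a p-value given here reflects the spread among libraries, and that spread may be technical. The level of FANCI was not checked, since no RNA measurement was analysed here. DRIP reads over all peaks ranged between 646455 and 1266127 per library, and intervals of peak calling differed between libraries, so read sums also depend on how much sequence was called.

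An R-loop forms when a transcript pairs again with its template strand and displaces the other DNA strand. Clusters of G on the displaced strand are known to favour the structure, because an RNA rich in G pairs tightly with a template rich in C, and GC skew is therefore a common sequence mark of R-loops near the starts and ends of genes. Low-skew gene-body peaks lack that mark over the peak as a whole. FANCI, a partner of FANCD2, acts in the Fanconi anaemia pathway, which repairs DNA crosslinks and is known to limit R-loops at stalled replication forks.

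The sequences below show what a low-skew peak can look like, beside a G-rich one. They are some of the windows from 250 bases before to 50 bases after an annotated start (RefSeq, GRCh38.p14) that lay wholly inside a coding gene-body peak. They were chosen after the values were seen, because the reference tables hold their sequence, and they do not stand for the whole set. Capitals mark runs of at least 3 G or at least 3 C, and each window is written 5′ to 3′ on the strand of its own gene.
LOC105378728, chr1:53250642-53250941, plus strand: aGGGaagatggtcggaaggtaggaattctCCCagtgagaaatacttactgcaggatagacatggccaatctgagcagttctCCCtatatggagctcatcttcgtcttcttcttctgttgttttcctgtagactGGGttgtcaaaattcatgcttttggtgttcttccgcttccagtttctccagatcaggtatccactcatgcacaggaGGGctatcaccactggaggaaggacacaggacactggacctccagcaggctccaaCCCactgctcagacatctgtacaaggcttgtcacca
LOC124904954, chr20:63678326-63678625, minus strand: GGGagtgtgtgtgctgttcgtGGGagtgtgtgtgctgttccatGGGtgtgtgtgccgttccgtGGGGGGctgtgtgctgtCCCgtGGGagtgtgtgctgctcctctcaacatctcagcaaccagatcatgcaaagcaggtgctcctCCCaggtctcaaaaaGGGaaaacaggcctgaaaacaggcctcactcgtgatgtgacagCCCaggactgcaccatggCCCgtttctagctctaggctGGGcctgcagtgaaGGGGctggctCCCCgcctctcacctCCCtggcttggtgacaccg
DLG4, chr17:7207222-7207521, minus strand: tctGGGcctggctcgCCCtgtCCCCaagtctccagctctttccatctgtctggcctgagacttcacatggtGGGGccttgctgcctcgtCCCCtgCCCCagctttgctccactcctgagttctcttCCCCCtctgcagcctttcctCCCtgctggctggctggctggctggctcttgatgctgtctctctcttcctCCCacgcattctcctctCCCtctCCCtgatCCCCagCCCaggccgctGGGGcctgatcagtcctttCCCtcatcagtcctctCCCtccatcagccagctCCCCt
VSTM2A, chr7:54545911-54546210, plus strand: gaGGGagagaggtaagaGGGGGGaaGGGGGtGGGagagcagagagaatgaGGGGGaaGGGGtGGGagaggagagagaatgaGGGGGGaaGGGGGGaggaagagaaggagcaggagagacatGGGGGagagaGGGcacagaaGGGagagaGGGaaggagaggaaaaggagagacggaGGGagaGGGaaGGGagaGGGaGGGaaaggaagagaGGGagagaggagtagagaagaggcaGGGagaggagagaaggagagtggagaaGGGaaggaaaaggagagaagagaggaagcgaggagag
The window of LOC105378728 had 70 G and 77 C with 3 runs of each base, and lay in a low-skew peak of control 1 assigned to LRP8, a lipoprotein receptor, with 66 DRIP and 17 input reads. The window of LOC124904954 had 97 G and 83 C with 8 runs of G and 6 of C, and lay in a low-skew peak of exp 2 assigned to RTEL1, a helicase that protects telomeres, with 27 DRIP and 12 input reads. Both windows therefore hold runs of both bases on 1 strand in near balance. The DLG4 window, from the gene of a postsynaptic scaffold protein, was different: it had 59 G, 129 C and 14 runs of C, a skew of 0.37 on the reference strand, while the peak around it in control 1 had a skew of 0.041 over its whole length. A peak can thus pass the rule while a part of it is skewed. The VSTM2A window, in a G-rich peak of both controls with skews of 0.683 in control 1 and 0.640 in control 2, had 169 G, 8 C and 21 runs of G. Of all 35116 windows in the table, 93.4% held both GGG and CCC on the written strand.

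One low-skew region in CHCHD3, which codes for a subunit of the complex that shapes mitochondrial cristae, contains the hairpin of the miRNA MIR3654 (RefSeq, GRCh38.p14). The hairpin is shown because its peaks were low-skew in all 4 libraries, and the mature arm is in capitals.
MIR3654, chr7:133034860-133034915, minus strand: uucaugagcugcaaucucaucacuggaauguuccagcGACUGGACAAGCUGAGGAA
The hairpin itself had 14 G and 13 C in 56 bases. The peaks over this region held 135 and 105 DRIP reads in exp 1 and exp 2, against 162 and 104 in control 1 and control 2. Input reads were 24 and 22 in the exp peaks, against 24 and 24 in the control peaks, and the deposited fold enrichments were 7.60 and 6.46 in exp, against 7.74 and 5.29 in control. The groups overlapped in DRIP reads and in enrichment. The peak of exp 2 began inside the hairpin, and the other 3 peaks covered it.

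Low-skew peaks numbered 1824 in exp 1 and 1121 in exp 2, against 1566 in control 1 and 3131 in control 2. The libraries of the groups interleave, since exp 1 lay above control 1. The means were 1472.5 ± 497 in exp and 2348.5 ± 1107 in control (SD, n = 2 each), a ratio of 0.627 with an exact two-sided permutation p of 0.667, where 0.333 is the smallest p that 2 against 2 libraries can give. Without control 2 the ratio was 0.940, and without control 1 it was 0.470, so its size rested on which control was used. With the best 14354 peaks of each library by deposited p, the ratio was 1.00. Peaks of all classes numbered 16785 and 14354 in exp, against 25281 and 23903 in control, so the exp lists were shorter as a whole. Low-skew peaks made up 10.9% and 7.81% of all peaks in exp, against 6.19% and 13.1% in control.

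The skewed peaks of the same gene bodies behaved differently in one respect. They numbered 3011 and 2528 in the exp libraries, against 5597 and 4625 in the controls, so both exp libraries lay below both controls. The ratio was 0.542, with an exact permutation p of 0.333, the smallest possible. G-rich peaks alone numbered 1379 and 1262 in exp, against 2937 and 2206 in control. In coding gene bodies the interleaving of the groups was thus seen in the low-skew peaks and not in the skewed ones. With 2 libraries a group that contrast cannot pass a threshold. Low-skew peaks elsewhere did not all interleave. Intergenic ones numbered 3957 and 3935 in exp, against 4951 and 5549 in control, and those with a promoter 227 and 161, against 423 and 511. Those in the bodies of other genes did interleave, with 359 and 233 in exp, against 328 and 536 in control.

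**Figure D1:**
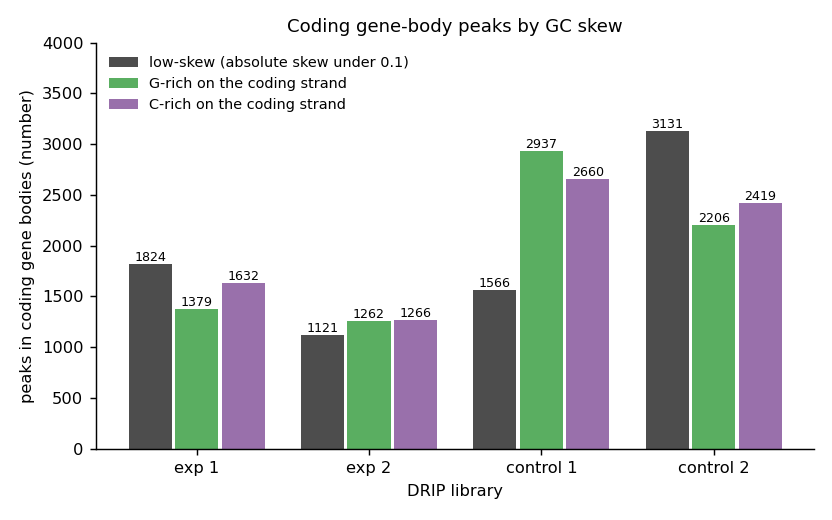
Number of peaks in coding gene bodies (vertical axis) in each DRIP library, split into low-skew, G-rich and C-rich peaks. Low-skew peaks are the largest class in exp 1 (1824) and control 2 (3131) and the smallest in exp 2 (1121) and control 1 (1566).

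The share of low-skew peaks among all coding gene-body peaks removes the overall peak number of a library. It was 37.7% in exp 1 and 30.7% in exp 2, against 21.9% in control 1 and 40.4% in control 2. The controls thus stood at both ends of the range, with both exp libraries between them. The difference of the means, exp minus control, was 3.11 percentage points with an exact permutation p of 1. It turned to -6.15 points without control 1 and to -0.395 points without exp 1. Control 1 also had the lowest low-skew share outside coding gene bodies: among intergenic peaks the share was 41.2% and 44.4% in exp, against 36.1% in control 1 and 44.9% in control 2. Among peaks that contain a promoter it was 33.4% and 29.1% in exp, against 23.6% in control 1 and 38.0% in control 2. The low share of control 1 was therefore not limited to gene bodies, and its source was not tested.

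Within the limit, the peaks leaned to neither strand by much. On the coding strand the skew was positive in 798 and 499 low-skew peaks of exp 1 and exp 2, against 751 and 1342 of control 1 and control 2. It was negative in 990 and 587 peaks of the exp libraries, against 785 and 1722 of the controls, so negative values were more frequent in each library. Peaks just inside the limit, with an absolute skew of 0.09 to 0.1, had 3.89 and 3.54 DRIP reads per input read in exp, against 4.48 and 3.88 in control. Those just outside, between 0.1 and 0.11, had 4.24 and 3.64 in exp, against 4.72 and 3.79 in control. The limit separates neighbours with similar enrichment.

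Low-skew peaks covered 1.22 and 0.783 Mb in exp 1 and exp 2, against 1.06 and 1.94 Mb in control 1 and control 2 (ratio 0.666, exact permutation p 0.667). They lay in 1486 and 982 genes in the exp libraries, against 1318 and 2306 genes in the controls (ratio 0.681, exact permutation p 0.667). As for the peak number, exp 1 lay above control 1 in both measures.

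Low-skew peaks were weaker than skewed ones in all 4 libraries. Their median fold enrichment over local background, a ratio deposited by the authors, was 3.71 and 3.67 in exp, against 3.74 and 3.73 in control. In skewed gene-body peaks it was 3.79 and 3.94 in exp, against 4.03 and 3.87 in control. Median −log10 q was 1.94 and 2.10 for low-skew peaks of exp 1 and exp 2, against 2.49 and 2.17 in control 1 and control 2. The skewed peaks had medians of 2.48 and 2.36 in exp, against 2.94 and 2.43 in control. Over all 4 libraries, median fold enrichment was 3.72 below a skew of 0.05, 3.68 between 0.05 and 0.1 and 3.73 between 0.1 and 0.2. It rose to 4.45 at 0.5 or more. Skewed peaks near the limit were thus nearly as weak as low-skew peaks, and the gap widened at high skew. Median peak widths of the low-skew class, 447 and 416 bp in exp against 408 and 467 bp in control, were within 20 bp of those of the skewed class, and the median input count was the same in both classes in each library.

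Summed over peaks, low-skew peaks held 3.21 and 2.51 DRIP reads per input read in exp 1 and exp 2, against 3.32 and 3.31 in control 1 and control 2. Both exp libraries were below both controls, with a ratio of 0.862 (exact permutation p 0.333, the smallest possible). Skewed gene-body peaks held 4.32 and 3.60 in exp, against 4.96 and 3.89 in control. The gap between the classes rests in part on a few very wide peaks. There were 40 low-skew peaks wider than 5 kb, 35 of them in NBPF genes or AC242842.3, and they held 24.2% and 30.6% of the low-skew input reads in exp, against 30.3% and 15.0% in control. Without peaks over 5 kb, the ratio was 3.87 and 3.17 in exp and 4.12 and 3.70 in control for low-skew peaks. For skewed peaks it was 4.46 and 3.70 in exp and 5.10 and 3.98 in control, so the order of the classes held in each library. Divided by the same quantity over all other peaks of the library, which was also lower in exp, the low-skew value turned in direction and was 1.08 times as high in exp as in control (exact permutation p 0.333). That value was 1.02 without peaks of at least 40 input reads per kb.

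Low-skew peaks were also found again in another library less often. The share of low-skew peaks that overlapped a peak of another library by at least 1 bp was 27.3% in exp 1 and 30.8% in exp 2, against 22.9% in control 1 and 21.1% in control 2. Among skewed gene-body peaks it was 44.1% and 51.0% in exp, against 31.5% and 37.8% in control. The low-skew share was lower in all 4 libraries, with a mean difference, low-skew minus skewed, of -15.6 percentage points, and of -16.2 to -11.7 points when any 1 library was left out. Both exp libraries had higher shares than both controls in the low-skew class (exact permutation p 0.333). A share of this kind also grows with the number of peaks in the other lists, which is larger for an exp library.

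Over the 4 libraries together, recurrence was flat up to a skew of about 0.2 and climbed beyond it. The share of peaks that overlapped a peak of another library was 24.3% below 0.05 and 24.4% between 0.05 and 0.1. It was 25.8% between 0.1 and 0.2, 31.6% between 0.2 and 0.3 and 38.8% between 0.3 and 0.5, and it reached 69.9% at 0.5 or more. In the last bin control 1 stood apart, with 51.8%, while exp 1, exp 2 and control 2 had 78.9%, 85.7% and 87.5%. The limit of 0.1 thus lies within the flat range, and the contrast between the classes comes from peaks with a far higher skew.

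**Figure D2:**
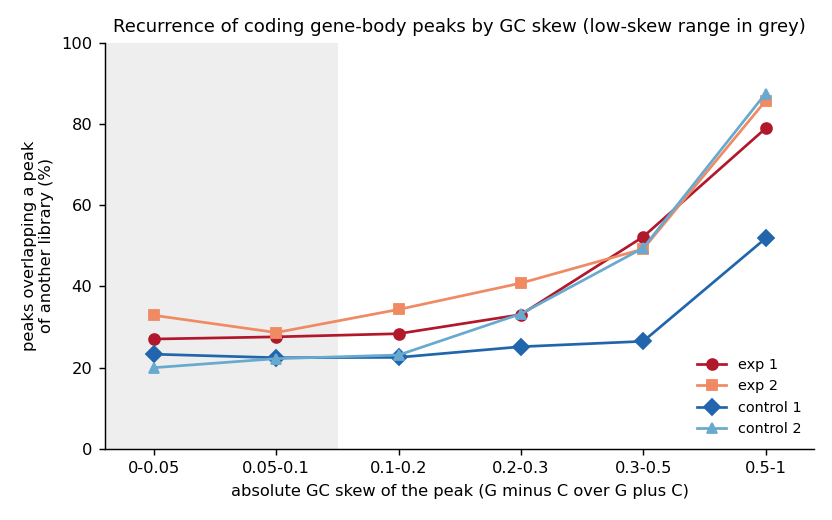
Percent of coding gene-body peaks that overlap a peak of another library (vertical axis) by absolute GC skew of the peak (horizontal axis), 1 line per DRIP library, with the low-skew range in grey. Shares lie between 20.0% and 32.9% in the low-skew range and reach 51.8% to 87.5% at a skew of 0.5 or more.

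Recurrence grows with the strength of a peak, so the classes were set side by side at matched −log10 q. In 23 of 24 strata, made of 6 ranges of −log10 q in 4 libraries, the low-skew share was the lower one, with differences between -24.0 and 4.37 percentage points. The exception was the range below 1.5 in control 1, with 17.9% of low-skew and 13.5% of skewed peaks. At −log10 q between 4 and 6 the low-skew shares were 41.1% and 50.0% in exp, against 33.7% and 37.1% in control. The skewed shares in the same range were 65.2% and 71.4% in exp, against 38.8% and 58.3% in control. The difference between the classes in recurrence was therefore present among peaks of like deposited significance. Peaks of 1 library are not replicates, so no p is given for it.

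**Figure D3:**
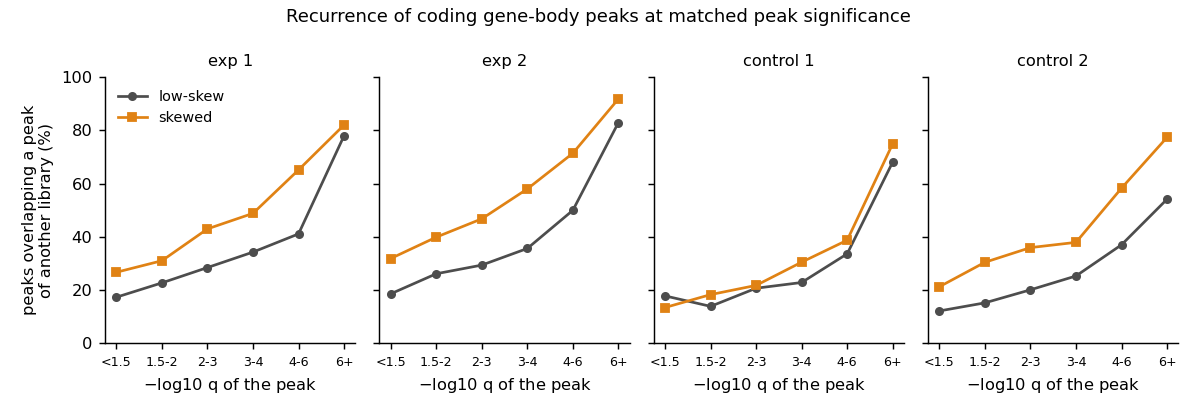
Percent of coding gene-body peaks that overlap a peak of another library (vertical axis) by −log10 q of the peak (horizontal axis), with 1 panel per DRIP library and 1 line each for low-skew and skewed peaks. The low-skew line lies below in 23 of 24 positions, the exception being the lowest range in control 1.

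Peaks of all 4 lists that shared at least 1 bp were joined into regions, and 6866 regions held a low-skew peak. Of these, 5779 (84.2%) were called in 1 library, 850 in 2, 165 in 3 and 72 (1.05%) in all 4. Of the 11824 gene-body regions with skewed peaks alone, 288 (2.44%) were called in all 4. There were 73 regions with calls in exp 1 and exp 2 but in no control, which is 1.06% of the low-skew regions, where the background is 1.3% of all regions and 0.846% of skewed gene-body regions. There were 181 (2.64%) with calls in control 1 and control 2 but in no exp library, where the background is 3.83% of all regions and 3.97% of skewed gene-body regions. The low-skew share of regions held by the controls alone was below both backgrounds, and that of regions held by exp alone lay between them. Pairs that mix the groups gave 282 regions for exp 1 with control 2, 166 for exp 2 with control 2, 76 for exp 2 with control 1 and 72 for exp 1 with control 1, so the pair of exp 1 and control 2 exceeded the pair of controls. With the best 14354 peaks per library, 81 regions were held by exp alone and 71 by the controls alone.

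Outside the NBPF genes and AC242842.3, the region of all 4 libraries that ranked first by its lowest −log10 q lay in SMOC1, which codes for a secreted calcium-binding protein of basement membranes. It lies at chromosome 14, 69885345 to 69886144 (GRCh38), inside the gene. Its peaks held 142 and 139 DRIP reads over 20 and 20 input reads in exp 1 and exp 2, against 116 and 94 DRIP reads over 19 and 17 input reads in control 1 and control 2. Both exp libraries were above both controls. Fold enrichment was 7.32 and 7.01 in exp, against 7.06 and 7.41 in control, and the skew lay between -0.054 and -0.047 in the 4 peaks. With the width of each peak taken into account, edgeR gave a log2 fold change, exp over control, of 0.39 ± 0.21 (SE) with an adjusted p of 0.759.

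TAOK3, a protein kinase of the STE20 family, held a region at chromosome 12, 118246074 to 118246917, that was low-skew in all 4 libraries. DRIP reads were 114 and 117 in exp, against 81 and 80 in control, over 15 and 16 input reads in exp and 15 and 16 in control. The groups did not overlap. Among the low-skew regions tested this one had the lowest p. The edgeR log2 fold change was 0.66 ± 0.22 (SE), and the p from edgeR was 0.00468 unadjusted and 0.337 after adjustment over all regions, which missed the threshold of 0.05.

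The 10 regions that the naming rule selects among those held by all 4 libraries, by the −log10 q of their weakest library, include 6 in NBPF genes or AC242842.3 on chromosome 1. NBPF genes are copies of 1 another that arose by recent duplication in primates, and their near-identical sequence leaves the position of reads among them uncertain. The NBPF20 region, 145293318 to 145391913, held 1862 and 1598 DRIP reads over 1632 and 1517 input reads in exp, against 2427 and 1833 DRIP reads over 1718 and 1553 input reads in control. The NBPF14 region, 148534905 to 148575013, held 1033 and 947 DRIP reads over 1037 and 1010 input reads in exp, against 1495 and 984 over 1079 and 1013 in control. DRIP reads were close to input reads in number in these long regions, although the highest deposited fold enrichment in the NBPF14 region was 6.07 and 7.52 in exp, against 12.5 and 7.16 in control. In the NBPF20 region it was 6.84 and 7.76 in exp, against 7.98 and 8.56 in control.

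A second group of recurrent regions lay where input reads were dense. SUMF2, a relative of the enzyme that activates sulfatases, held 2 regions in all 4 libraries on chromosome 7. The region at 56067673 to 56068981 held 145 and 92 DRIP reads over 49 and 30 input reads in exp, against 116 and 223 over 39 and 83 in control. The region at 56070368 to 56070942 held 92 and 81 DRIP reads over 49 and 42 input reads in exp, against 79 and 89 over 39 and 43 in control. The groups overlapped in both. PLCXD2, a gene of the phospholipase C X-domain family on chromosome 3, held a region at 111745510 to 111746087 with 121 and 104 DRIP reads over 40 and 43 input reads in exp, against 127 and 122 over 36 and 49 in control.

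The strongest regions called in the exp libraries alone held fewer reads than the named regions of all 4 libraries. The 6 strongest lay in OSBPL6, of the oxysterol-binding protein family, NRDC, a metalloprotease, ZFAND4, VIM, the intermediate filament protein vimentin, VIRMA, a subunit of the RNA m6A methyltransferase, and TLE7. VIM, at chromosome 10, 17229407 to 17229945, held 40 and 44 DRIP reads over 3 and 3 input reads in exp 1 and exp 2, and its fold enrichment was 4.55 in exp 1 and 5.01 in exp 2. OSBPL6, at chromosome 2, 178235105 to 178235616, held 30 and 33 DRIP reads over 3 and 5 input reads. The 12 exp peaks of these 6 regions held 25 to 63 DRIP reads each, where the median low-skew peak held 28 in exp 1 and 24 in exp 2. In VIRMA and in TLE7, 1 of the 2 peaks was skewed. The read counts of the controls over these intervals were not analysed here, since the deposited counts of a library cover its own peaks alone, so absence of a call is not a measured level.

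The 6 strongest regions called in the controls alone lay in BBX, an HMG-box protein, PLCXD2, LPP, a LIM protein of focal adhesions, STX5, a syntaxin of the Golgi, NLRP12, a regulator of innate immune signalling, and ZNF610, a zinc finger protein. BBX, at chromosome 3, 107566205 to 107566556, held 103 and 101 DRIP reads over 36 and 36 input reads in control 1 and control 2. LPP, at chromosome 3, 188265777 to 188266600, held 68 and 66 DRIP reads over 7 and 11 input reads, and its control 2 peak was past the limit with a skew of 0.119. The control 1 peaks of STX5, with 0.146, and of ZNF610, with -0.145, were past it too. NLRP12, at chromosome 19, 53800785 to 53801450, held 49 and 68 DRIP reads over 7 and 11 input reads. BBX and PLCXD2 lie in the stretch of chromosome 3 with dense input reads described below, and the part of that density in the calls was not tested.

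**Figure D4:**
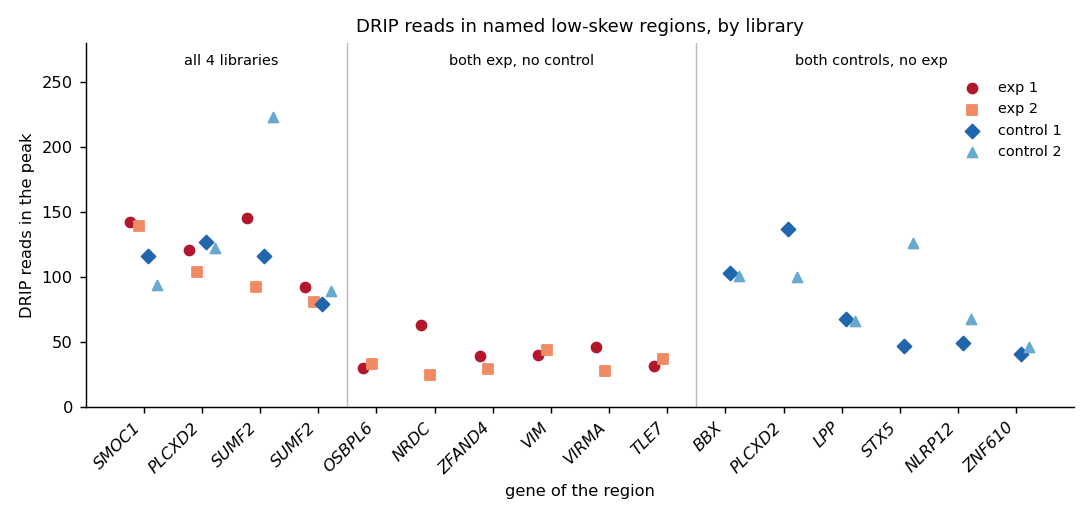
DRIP reads in the peaks (vertical axis, 1 marker per library) of the named low-skew regions outside the NBPF genes and AC242842.3, grouped by the libraries that called them. Regions of all 4 libraries hold 79 to 223 reads a library, those of exp alone 25 to 63 and those of the controls alone 41 to 137.

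DRIP reads were compared by edgeR's quasi-likelihood test in 1370 regions of any class, those with a single peak per library, and the model took peak width as an offset. Of these, 51 held a low-skew peak. No low-skew region passed an adjusted p of 0.05 in either direction, where the background is 0% of all regions tested. At an unadjusted p under 0.05 there were 2 of 51, TAOK3 and PSPH, against a background of 7.01% of all regions tested, and DESeq2 called 0 low-skew regions at an adjusted p of 0.05. The share of low-skew regions at that level, 3.92%, was below the background. Of the 51 regions 38 were higher in exp, with a median log2 fold change of 0.13, while 702 of all 1370 were higher, with a median of 0.0093. PSPH held 136 and 146 DRIP reads in exp, against 233 and 201 in control, but its exp peaks were narrower, 378 and 742 bp against 929 and 1068 bp, and the log2 fold change per width was 0.47 ± 0.21 (SE), adjusted p 0.578.

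The 72 regions called in all 4 libraries lay in 66 genes, and 29 of them were low-skew in each of the 4 libraries. Apart from those named above, they included GRIN2D, a glutamate receptor subunit, with 61 and 24 DRIP reads in exp, against 28 and 61 in control. SLC2A14, a glucose transporter gene, held 43 and 39 DRIP reads in exp, against 45 and 42 in control. Both genes were chosen after their values were seen, and the groups overlapped in both.

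A small part of the low-skew peaks lay where the input library itself was dense, and those peaks were clustered. The median low-skew peak had 13.4 input reads per kb, and 275 of the 7642 low-skew peaks had at least 40. They made up 3.23% and 3.93% of low-skew peaks in exp, against 4.09% and 3.45% in control, and 3.42% and 3.80% of skewed gene-body peaks in exp, against 3.07% and 2.68% in control, so dense input was not particular to the low-skew class. Of these 275, 88 lay on chromosome 7 between 55 and 57 Mb, 46 on chromosome 3 between 105 and 113 Mb, 39 on chromosome 19 between 50 and 58 Mb and 19 on chromosome 14 between 74 and 78 Mb. All 88 low-skew peaks of the chromosome 7 stretch and 46 of 47 in the chromosome 3 stretch were of this dense kind. On chromosome 19 it was 39 of 196, and on chromosome 14 it was 19 of 80.

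The chromosome 7 stretch runs through EGFR, the receptor tyrosine kinase that is mutated in many lung adenocarcinomas, and the genes beside it. It held 21 and 11 low-skew peaks in exp 1 and exp 2, against 19 and 37 in control 1 and control 2. Skewed gene-body peaks were about as many there, 14 and 18 in exp against 28 and 29 in control, with 83.7 and 81.4 input reads per kb in exp and 79.4 and 76.3 in control. Input reads per kb of the low-skew peaks were 82.0 and 90.8 in exp, against 84.6 and 80.6 in control. Their DRIP reads per input read were 2.28 and 1.83 in exp, against 2.43 and 2.22 in control, below the values of all low-skew peaks in each library. Dense input and low enrichment thus went together in this stretch, in both groups. The genes were PSPH, the last enzyme of serine synthesis, with 18 low-skew peaks over the 4 libraries, NIPSNAP2, a mitochondrial protein, with 17, SEPTIN14, a septin, with 12, and SUMF2 with 10. AC092647.5 had 9, LANCL2 7, VOPP1 6, EGFR itself 4, PHKG1, a phosphorylase kinase subunit, 3, and CCT6A, a chaperonin subunit, 2. Without this stretch the low-skew peaks numbered 1803 and 1110 in exp, against 1547 and 3094 in control. Whether the number of copies of the stretch differs in these cells was not tested.

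**Figure D5:**
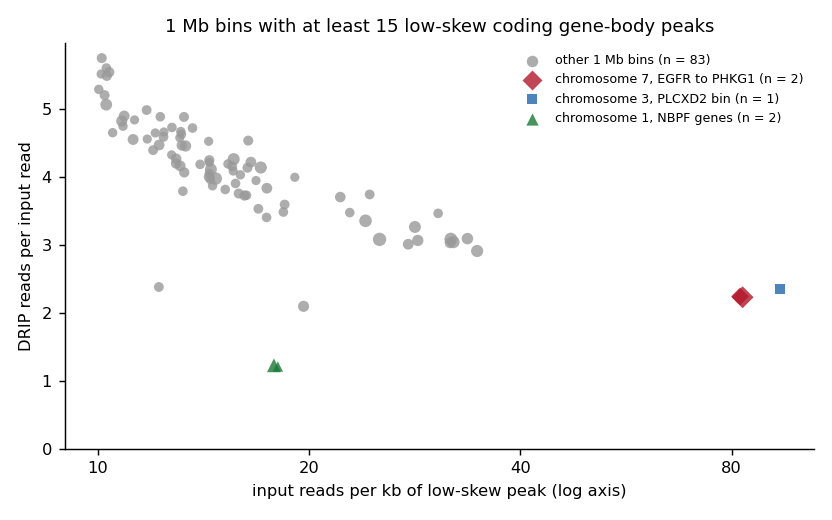
DRIP reads per input read (vertical axis) against input reads per kb (horizontal, log axis) for the low-skew peaks of 88 bins of 1 Mb that hold at least 15 of them, summed over the 4 libraries, with larger symbols for more peaks. The 2 bins of chromosome 7 and the PLCXD2 bin of chromosome 3 lie beyond 80 input reads per kb, and the 2 bins with NBPF genes lie lowest, near 1.2 DRIP reads per input read.

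Dense input also went with recurrence. Of low-skew peaks with at least 40 input reads per kb, 66.1% and 68.2% overlapped a peak of another library in exp 1 and exp 2, against 54.7% and 51.9% in control 1 and control 2. Of dense skewed peaks 65.0% and 81.3% did so in exp, against 50.6% and 69.4% in control, so the low-skew share was the higher one in exp 1 and control 1 and the lower one in exp 2 and control 2. Of the other low-skew peaks, 26.0% and 29.2% did so in exp, against 21.5% and 20.0% in control. Peaks of this kind made up 1.99% of low-skew peaks called in 1 library, 5.54% of those whose region was held by 2, 16.4% for 3 and 14.6% for 4. In skewed gene-body peaks the corresponding shares were 1.84%, 3.32%, 7.05% and 7.70%. Dense input was therefore a larger component of the recurrent low-skew peaks than of the recurrent skewed ones. Without dense peaks in either class, the mean difference in recurrence, low-skew minus skewed, was -16.1 percentage points.

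The low-skew peaks lay in genes of somewhat shorter median length than the skewed peaks. For the 96.5% of coding gene-body peaks that could be placed in a RefSeq gene, the median gene length of low-skew peaks was 99.7 and 93.4 kb in exp, against 80.2 and 85.4 kb in control. That of skewed peaks was 111 and 110 kb in exp, against 103 and 98.3 kb in control. Genes over 300 kb took 16.7% and 14.8% of low-skew peaks in exp, against 14.8% and 13.2% in control, and 22.1% and 21.1% of skewed peaks in exp, against 20.5% and 19.6% in control. The direction of these 2 measures was the same in all 4 libraries. Genes under 20 kb took 6.05% and 8.37% of low-skew peaks in exp, against 11.8% and 8.58% in control. They took 8.77% and 8.05% of skewed peaks in exp, against 9.68% and 9.19% in control, so for short genes the direction varied by library. Low-skew peaks also lay nearer to the gene start: their median relative position, from 0 at the start to 1 at the end, was 0.448 and 0.470 in exp, against 0.482 and 0.467 in control. For skewed peaks it was 0.494 and 0.527 in exp, against 0.520 and 0.507 in control.

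By chromosome, the low-skew share of coding gene-body peaks over the 4 libraries was highest on chromosome 14, with 40.3%, and lowest on chromosome 18, with 15.3% of 131 peaks. Chromosome 14 had low-skew shares of 53.2% and 29.3% in exp, against 24.5% and 50.3% in control. Exp 1 and control 2 were thus high there and exp 2 and control 1 were not, which is also the split of these libraries in their share over the genome. Chromosome 18, poor in genes, held 6 and 1 low-skew peaks in exp, against 4 and 9 in control.

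Low-skew peaks were spread over 4118 genes, of which 2429 had a single such peak in the 4 libraries together and 237 had 5 or more. Genes with a low-skew peak in all 4 libraries numbered 115, and 2698 had one in 1 library. Low-skew peaks were the only gene-body peaks in 1373 genes. Outside the NBPF genes and the dense stretches, PDZD2, a PDZ-domain protein, had the most, with 5 and 6 low-skew peaks in exp, against 6 and 3 in control, over a gene of 472 kb. RCOR1, the CoREST corepressor, had 7 and 2 in exp, against 1 and 4 in control. ULK4, a kinase-like protein, had 4 and 3 in exp, against 1 and 6 in control. CACNA1A, the pore subunit of the P/Q-type calcium channel, had 5 and 2 in exp, against 0 and 5 in control. No gene of these 4 separated the groups. The remaining genes of the 10 with most peaks were NBPF20 with 33, PSPH with 18, NIPSNAP2 with 17, NBPF10 with 15, PLCXD2 with 13 and NBPF14 with 12.

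The genes were grouped into lists, each set beside all 20056 coding genes, of which 19.9% had a low-skew peak in any library and whose median length was 24.1 kb. The lists are described by counts and none was tested. Long genes led: of 30 common fragile site and very long genes, 20 (66.7%) had one, with 11 and 9 genes in exp, against 6 and 14 in control. MACROD2, a hydrolase of ADP-ribose, had 9 low-skew peaks, 2 and 2 in exp against 0 and 5 in control, RBFOX1, a splicing factor, had 2 and 4 in exp against 0 and 3 in control, and AUTS2 had 2 and 0 in exp against 1 and 4 in control. Cadherins, protocadherins and neuronal adhesion genes had one in 22 of 50 (44.0%), led by CDH23 and CDH4, cadherins, and CNTN5, a contactin. The genes of these lists have median lengths of 1310 and 385 kb, so they also offer more sequence than a typical gene. All lists below except the ribosomal proteins have medians above 24.1 kb too. These lie between 30.6 kb for R-loop processing factors and 239 kb for glutamate and GABA receptors.

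Voltage-gated and potassium channels had a low-skew peak in 18 of 48 genes (37.5%), with CACNA1A, CACNA1I and CACNA1B leading. Glutamate and GABA receptors had one in 12 of 37 (32.4%), with GABBR2, GRIN2D and GABBR1. Histone-modifying enzymes had one in 21 of 57 (36.8%). KDM3B, a histone H3 lysine demethylase, had 3 and 1 low-skew peaks in exp, against 3 and 1 in control, and just 1 skewed peak in all. KDM2A had 3 and 1 in exp, against 0 and 1 in control, and KDM2B had 0 and 1 in exp, against 1 and 2 in control.

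Wnt, Notch and Hippo genes had a low-skew peak in 16 of 52 (30.8%), with 4 and 1 genes in exp, against 8 and 11 in control. LRP5, a Wnt co-receptor, had 0 and 0 in exp, against 3 and 4 in control, so its groups did not overlap. Of the 4118 genes with a low-skew peak, 223 had one in both controls and in no exp library, and 92 had the reverse. The control lists are longer, and no matching gene count for skewed peaks is given here. Among regions, those of the controls alone were 2.48 times as many as those of exp alone in the low-skew class. The same ratio was 2.94 over all regions and 4.7 over skewed gene-body regions. TEAD4, the DNA-binding partner of YAP, had 3 and 0 in exp, against 1 and 3 in control, and TCF7L1, a Wnt transcription factor, had 2 and 1 in exp, against 1 and 1 in control. Integrins, laminins and basement membrane collagens had one in 15 of 42 (35.7%), with 5 and 1 genes in exp, against 7 and 6 in control. They were led by NID1, COL4A1 and COL4A4. Lung adenocarcinoma drivers and receptor signalling genes had one in 13 of 40 (32.5%), with 2 and 3 genes in exp, against 5 and 10 in control. The leading genes were EGFR, SMARCA4, a chromatin remodeller, and BRAF, a kinase, with 4, 4 and 3 peaks.

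Among the 35 Fanconi anaemia and crosslink repair genes, 8 (22.9%) had a low-skew peak, 4 and 1 genes in exp, against 0 and 6 in control. FANCI itself, on chromosome 15, had 1 and 0 low-skew peaks in exp, against 0 and 4 in control, with 19 to 36 DRIP reads each. FANCM, a DNA translocase, had 1 and 0 in exp, against 0 and 2 in control, and REV1, a translesion polymerase, had 2 and 0 in exp, against 0 and 1 in control. R-loop processing factors had one in 6 of 35 genes (17.1%), among them DDX21, a helicase, ADAR, an RNA editing enzyme, and BLM, a helicase. Ribosomal proteins, whose median gene is 5.03 kb long, had one in 5 of 64 (7.81%), with RPL22, RPS23 and RPS24 named by the rule. In none of these 3 lists were the gene counts of the groups apart. In the channel, Wnt, integrin and driver lists both exp libraries had fewer genes than both controls. Channels had 5 and 6 genes in exp, against 8 and 8 in control. Over all coding genes the counts were 1439 and 945 in exp, against 1270 and 2235 in control. Genes with any gene-body peak, skewed or not, numbered 3121 and 2462 in exp, against 3924 and 4265 in control. In the Wnt list they were 14 and 9 in exp, against 21 and 22 in control, and in the integrin list 11 and 7, against 23 and 22. In the driver list they were 7 and 8, against 12 and 15, and in the channel list 18 and 19, against 19 and 26. Fewer genes in exp was thus not particular to low-skew peaks or to these lists.

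The low-skew share of a list's gene-body peaks differed from the order above. Over all coding genes 32.6% of 22689 gene-body peaks were low-skew. The share was above that in Fanconi anaemia and crosslink repair genes (51.5% of 33 peaks), ribosomal proteins (50.0% of 10) and histone-modifying enzymes (43.6% of 110). It was below it in Wnt, Notch and Hippo genes (30.2% of 116), R-loop processing factors (29.2% of 24), lung adenocarcinoma drivers (27.8% of 90) and the common fragile site and very long genes (27.3% of 238). It was lower still in integrins, laminins and collagens (23.5% of 98), glutamate and GABA receptors (20.2% of 104), channels (19.1% of 209) and cadherins and neuronal adhesion genes (18.0% of 294). The lists with the largest share of genes hit were thus not those with the largest share of low-skew peaks, and the shares of the smallest lists rest on few peaks.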

How the data were processed

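The authors deposited 1 peak list per DRIP library, not pooled, with the build GRCh38 (hg38) and the tools FastQC, cutadapt, Bowtie2, MACS2 and DiffBind, per the submitters' processing notes. Their versions and their parameters are not stated in those notes or in the labels. Per the file headers, each deposited list gives a location class, a gene, a width, a GC skew score, a fold enrichment, which is a ratio over local background, and whole-number counts of DRIP and input reads, each library being counted only over its own peaks. The deposited p-value and q-value columns were read as −log10, since the lowest p entry was 3.00. The skew score was read on the reference strand, since it correlated with the skew of that strand in RefSeq windows (r = 0.901 over 52 windows of plus genes and 0.956 over 59 of minus genes, across narrow peaks) and was turned for minus genes.

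Groups came from the titles. For single values of a library, exp and control were set against each other by exact permutation (two-sided). Peaks sharing at least 1 bp formed regions. Counts in regions with 1 peak per library were tested with edgeR 4.0.16 (TMM factors from counts per width, Benjamini-Hochberg adjustment), which was tested on simulated data, and DESeq2 1.42.0 was an alternative. Peaks without a RefSeq match (GRCh38.p14) were left out of gene lengths, and 96.8% of gene names matched.

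Named genes followed a rule, apart from the exceptions given next: the 10 strongest regions of all 4 libraries that were low-skew in at least 3, the 6 strongest of either group alone, the 10 genes with most peaks, up to 3 per list and all regions called by edgeR. TAOK3 was named for its p, and CHCHD3, SLC2A14 and genes of the printed windows, the chromosome 7 stretch and other bins were named outside the rule. A tie at 12 peaks was cut by gene name, which left SEPTIN14 and TRAPPC9 out of the 10. One list and its genes are not reported here. Members and lists were chosen with earlier results of these data known. The limits of 40 input reads per kb and 5 kb were set after seeing the data. Counting error alone limits a peak with a median of 24 to 29 DRIP reads.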

Additional observations from a re-analysis of the deposited data

How the results depend on the processing

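The ratios, exp over control, of low-skew peak number and of genes with a low-skew peak were above 1 under 1 alternative, the best 14354 peaks of each library, with 1.00 for peaks and 1.02 for genes. Leaving out each library in turn gave 0.470 to 0.940 for peaks, 0.535 to 0.936 for genes, 0.516 to 0.941 for covered length, 1.02 to 1.14 for DRIP reads per input read divided by that of all other peaks, and -6.15 to 12.4 points for the share of gene-body peaks, which was negative without control 1 (-6.15) and without exp 1 (-0.395). The other alternatives (skew limits of 0.05 and 0.15, −log10 q of at least 2, more DRIP than input reads, without peaks over 5 kb and without dense input) kept the direction of these 5 results.

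Regions held by the controls alone numbered 181, and 92 at −log10 q of at least 2, 102 at a skew limit of 0.05, 90 where all peaks of the region were low-skew and 71 at equal peak number. Regions held by exp alone numbered 73, and 25, 38 and 44 under the first 3 of these. When 1 library is dropped its group needs a call in 1 library alone, and the counts were 92 to 1387 for exp alone (111 without control 2) and 218 to 2611 for controls alone. The difference in median −log10 q, low-skew minus skewed, was -0.38 on average and -0.18 at a skew limit of 0.05, and -0.42 to -0.32 with a library left out. The cause of these shifts was not tested.

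The replicate block left 0 low-skew regions called by edgeR, as did each of the other 9 settings, with medians of 0.075 to 0.194 on the log2 scale. Same-numbered libraries did not deviate together (correlation -0.0763 over 1370 regions), so the numbers were not taken as pairs. Read totals of whole libraries and read counts outside a library's own peaks were not used here, which limits comparisons of absolute enrichment and of regions without a call.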

Other observations

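Beyond the stretches with dense input, several other stretches held many low-skew peaks. On chromosome 22 the bin from 38000001 to 39000000 held 39, with 5 and 7 in exp and 9 and 18 in control, in CSNK1E, a casein kinase gene, PLA2G6, a phospholipase, and their neighbours. On chromosome 14 the bin from 102000001 to 103000000 held 34, with 11 and 3 in exp and 5 and 15 in control, in RCOR1, TRAF3, a signalling adaptor, HSP90AA1, a chaperone, and others. On chromosome 10 the bin from 68000001 to 69000000 held 33, with 4 and 9 in exp and 5 and 15 in control, in STOX1, CCAR1, TET1, an enzyme of DNA demethylation, and others. The 3 bins also held 39, 39 and 28 skewed gene-body peaks, so the crowding was not particular to the low-skew class. DRIP reads per input read over the low-skew peaks were 3.09, 3.36 and 3.98 in the 3 bins. Their input reads per kb were 25.2, 24.1 and 14.7, where all low-skew peaks together had 16.7. Of the 1602 bins of 1 Mb with a low-skew peak, the median bin held 3.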
